A study of Homo sapiens with 44 samples.

Results

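The genes described here are 9 genes of the cellular response to low oxygen and of sugar breakdown: SLC2A1, PGK1, LDHA, PDK1, BNIP3, CA9, ADM, EGLN3 and NDRG1. They were taken from a list of 10 symbols by looking each symbol up in the count files, which gave 9 of 19923 genes. The other listed gene is not analysed here.

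The study treated human neuroblastoma cells with STM2457, a small molecule that blocks METTL3, the enzyme that writes N6-methyladenosine (m6A) on messenger RNA. Both cell lines, Kelly and NGP, are long-established neuroblastoma lines with an amplified MYCN gene and are labelled wild type. Kelly cells received 8 µM STM2457 or the solvent DMSO for 1 day or 6 days, and NGP cells received the same for 6 days. Kelly cells were also grown under the skin of male and female nude mice, which lack most T cells, and these animals received 50 mg/kg STM2457 or vehicle each day for 14 days; the labels call the vehicle group DMSO. Every condition has input libraries, made by RNA-seq of sonicated poly(A) RNA, and RIP libraries of the fragments bound by an m6A antibody. There are 3 libraries per group in culture and 2 per group in the xenograft, 44 in all. Nothing in the labels says that replicates came from separate cultures or animals, so a p-value measures only the spread between these libraries, which may be technical. Where tumours are counted or numbered below, each stands for 1 xenograft library, not for a known separate tumour.

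Cells sense oxygen through prolyl hydroxylases of the EGLN family, which mark the HIF alpha subunits for destruction through VHL. When oxygen is low, HIF1A or EPAS1 pairs with ARNT and binds the short core sequences ACGTG or GCGTG near its target genes. The targets raise glucose uptake and glycolysis, divert pyruvate away from mitochondria, handle acid and signal to blood vessels. Neuroblastoma comes from the sympathetic lineage, in which EPAS1 is prominent during normal development.

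The core sequences were looked up in the RefSeq promoters of the GRCh38.p14 assembly, which run from 250 bases before to 50 after the start of transcription. ACGTG or GCGTG, on either strand, occurred in 48.4% of 35116 promoters of this length, so a match alone says little. Promoters of 8 of the 9 genes were searched, all but that of NDRG1. CA9, ADM and SLC2A1 held 1 match each. The BNIP3 promoter and the first LDHA promoter held 6 each, and PGK1 held 4. A palindromic CACGTG counts as a match on each strand, and such overlapping matches are included. Of the 2 promoters of PDK1, 1 held 2 matches and the other 0. The EGLN3 promoter held 0, which says only that these letters are not in that window. Windows of 25 bases around a match are printed for the genes in which one was found, to show where it lies. They read in the direction of the gene, and the capitals mark the match, read on the opposite strand where it is written CACGT.
CA9, chr9:35673900-35673924, plus strand: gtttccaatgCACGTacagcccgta
ADM, chr11:10304962-10304986, plus strand: gcaggagcgcGCGTGgctgaggaaa
BNIP3, chr10:131982042-131982066, minus strand: cacgcgccgcACGTGccacacgcac
PDK1, chr2:172556072-172556096, plus strand: ccacgtccctCACGTaccactcggc
LDHA, chr11:18394466-18394490, plus strand: gcccgactcaCACGTgggttcccgc
PGK1, chrX:78104036-78104060, plus strand: ggcgtgccggACGTGacaaacggaa
SLC2A1, chr1:42958829-42958853, minus strand: gcaacagcgaGCGTGccggtcgcta
The CA9 match begins at -18 from the start of transcription and the PGK1 match shown at -202. The SLC2A1 match begins at 26, inside the first exon.

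In the deposited tables (GRCh38), the genes lie at chr1:42925375-42958868 (SLC2A1), chrX:77910739-78129295 (PGK1), chr11:18394560-18408425 (LDHA), chr2:172555373-172608669 (PDK1) and chr10:131966455-131982013 (BNIP3). CA9 lies at chr9:35673918-35681159, ADM at chr11:10305073-10307397, EGLN3 at chr14:33924227-34462774 and NDRG1 at chr8:133237171-133302022. The exons of CA9 share 36.1% of their bases with ARHGEF39, and fragments there were not assigned to either gene, so CA9 is counted from the rest. GENCODE 44 names 44 pseudogenes of BNIP3, 6 of LDHA, 2 of PGK1, and 1 each of PDK1 and EGLN3, and how fragments were split between these genes and their copies is uncertain.

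Inputs held 2.145 to 31.49 M fragments assigned to genes and RIP libraries 4.678 to 36.5 M; in Kelly at 6 days treated input 3 held 5.77 M and 1.79% mitochondrial fragments, against 12.1 to 31.5 M and 4.06% to 5.09% in the other inputs. All 10 markers of neuroblastoma were detected in every input library. CPM is the count divided by the assigned fragments of the library in M. The 20 markers of stroma, endothelium and blood summed to 125 to 185 CPM in the xenograft groups and 88.1 to 200 CPM in culture. Of these markers 8 were at 0 in the DMSO tumours and 13 in the treated ones, against 4 to 7 in the culture groups. The treated tumour inputs were the shallowest, at 3.19 and 2.145 M fragments. The headers place each experiment in folders of its own, so a batch and the experiment cannot be told apart in any comparison of levels between experiments. The Kelly 1 day inputs and RIP libraries also lay in separate folders, so a batch and the library type cannot be told apart in their ratios.

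The genes differed widely in abundance. Levels of different genes are compared as TPM, which divides by the length of all exons of the gene. In DMSO-treated Kelly cells at 1 day the order was PGK1 (387 ± 15.7 TPM, SD, n = 3), LDHA (273 ± 10.4), SLC2A1 (231 ± 4.67), BNIP3 (52.8 ± 0.96), PDK1 (8.36 ± 0.77), NDRG1 (3.07 ± 0.35), EGLN3 (2.1 ± 0.07), CA9 (0.83 ± 0.53) and ADM (0.32 ± 0.05). Only CA9 and ADM, the last neighbours in this order, lay within each other's spread. At 6 days the order in DMSO was PGK1 (161 ± 2.09 TPM), SLC2A1 (125 ± 5.37), LDHA (80.2 ± 1.86) and BNIP3 (50.6 ± 0.96), then CA9 (6.12 ± 2.46), EGLN3 (5.19 ± 0.56), NDRG1 (5.15 ± 0.47), ADM (2.95 ± 1.73) and PDK1 (2.49 ± 0.32). The ADM libraries, at 1.79 to 4.94 TPM, overlapped those of the other 4 genes of this group, and CA9, EGLN3 and NDRG1 overlapped one another, so only PDK1 lay apart from those 3. In NGP the spreads of LDHA (210 ± 27.1 TPM) and PGK1 (177 ± 28.9) overlapped, although LDHA was the higher within each of the 3 libraries. SLC2A1 was at 43.2 ± 7.46 there. In the tumours SLC2A1 (145 ± 2.62 TPM, n = 2) led, and PGK1 (91.1 ± 0.99) and LDHA (82.1 ± 13.5) did not differ beyond their spread.

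**Figure D1:**
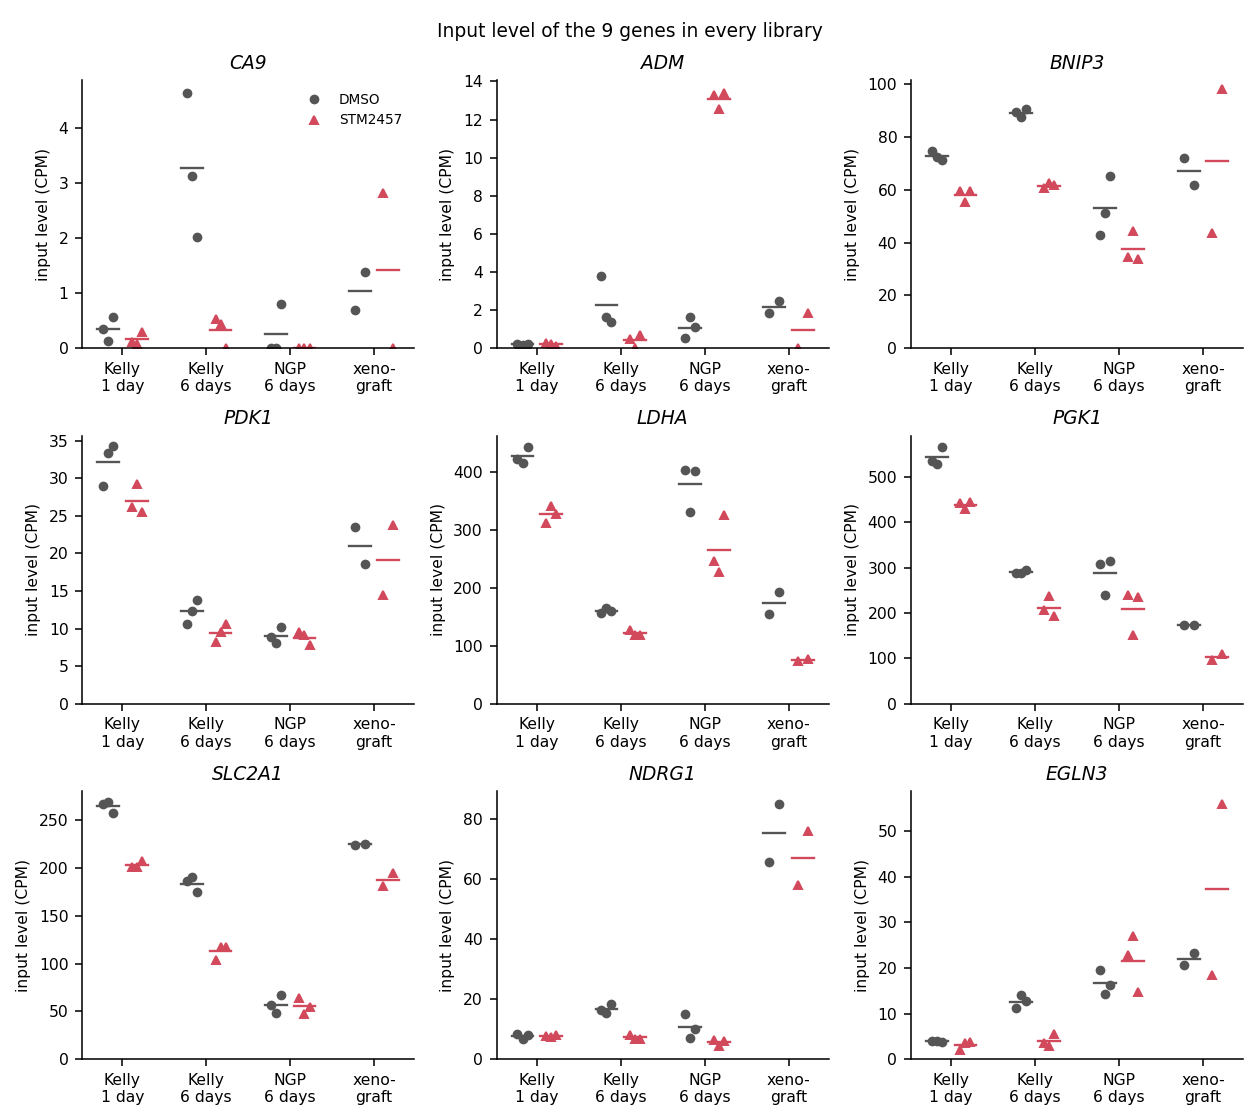
Input level of the 9 genes, in CPM (linear axes from 0) for every library of Kelly at 1 and 6 days, NGP at 6 days and the xenograft; dots are DMSO, triangles STM2457, and bars the group means. In Kelly at 6 days all treated libraries lie below all DMSO libraries for each of the 9 genes, while in NGP the treated libraries of ADM (12.6 to 13.4 CPM) lie above.

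The first comparison asked how the genes responded to STM2457. In Kelly cells after 6 days all 9 genes fell, from 1.42-fold for LDHA to 8.14-fold for CA9. Over all 12773 genes tested there, 26.6% were called and 14.7% fell. CA9 and ADM passed the filter on low counts only through their DMSO libraries. That filter favours a fall, so the direction of these 2 genes adds little. EGLN3 had the largest fall of the rest, 3.78-fold. Without treated input 3, which stood apart in depth, all 9 were called as well. With 1 spread estimated over all 22 inputs together, 7 of the 9 were called, where 5.56% of all genes were; CA9 (-3.14) and PDK1 (-0.49) lost their calls, at adjusted p-values of 0.0715 and 0.23 by edgeR with Benjamini-Hochberg adjustment. The median log2 change of the 9 genes was -0.82, against -0.0045 over all genes. Each change below is a log2 change of the input level, scaled with TMM factors, ± its SE, and comes from the quasi-likelihood test of edgeR, adjusted over all genes by Benjamini-Hochberg. The levels beside it are CPM, scaled by library totals only. In these bulk libraries, fewer cells carrying a transcript and less of it per cell cannot be told apart.

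SLC2A1 encodes the glucose transporter GLUT1. Its input level in Kelly at 6 days was 186, 190 and 175 CPM in the DMSO libraries and 104, 117 and 118 CPM in the treated ones. The treated libraries were all lower, with a wide gap between the groups. It fell by 0.81 ± 0.07 on the log2 scale (edgeR, Benjamini-Hochberg adjusted p = 2.06e-07).

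PGK1 and LDHA are enzymes of late glycolysis: PGK1 makes ATP from bisphosphoglycerate, and LDHA turns pyruvate into lactate. PGK1 was at 288, 289 and 295 CPM with DMSO and at 206, 238 and 193 CPM with STM2457. LDHA was at 157, 164 and 160 CPM with DMSO and at 128, 119 and 118 CPM with STM2457. Neither gene's groups overlapped. PGK1 fell by 0.56 ± 0.07 on the log2 scale and LDHA by 0.50 ± 0.06 (edgeR, Benjamini-Hochberg adjusted p = 3.34e-05 and 2.25e-05).

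PDK1 is a kinase that switches off pyruvate dehydrogenase and so keeps pyruvate out of the mitochondrion. Its levels were 10.7, 12.4 and 13.8 CPM with DMSO and 8.23, 9.5 and 10.6 CPM with STM2457. The highest treated library lay just under the lowest DMSO library. PDK1 fell by 0.52 ± 0.16 (edgeR, Benjamini-Hochberg adjusted p = 0.0206), and the call was lost without DMSO input 2 or 3 or treated input 1 or 2, with adjusted p-values of 0.0576 to 0.109.

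BNIP3 is a mitochondrial outer membrane protein that promotes mitophagy. It was at 89.5, 87.6 and 90.9 CPM with DMSO and at 60.7, 62.5 and 61.8 CPM with STM2457. Both groups were tight and far apart. BNIP3 fell by 0.64 ± 0.07 on the log2 scale (edgeR, Benjamini-Hochberg adjusted p = 3.29e-06).

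EGLN3, NDRG1, CA9 and ADM had the largest falls of the 9. EGLN3, the oxygen-sensing prolyl hydroxylase that HIF itself induces, was at 11.2, 14 and 12.7 CPM with DMSO and at 3.56, 2.86 and 5.55 CPM with STM2457. NDRG1, a stress-induced cytoplasmic protein, was at 16.4, 15.5 and 18.5 CPM with DMSO and at 8.2, 6.76 and 6.94 CPM with STM2457. For both genes every treated library was far below every DMSO library. EGLN3 fell by 1.92 ± 0.21 on the log2 scale and NDRG1 by 1.29 ± 0.15 (edgeR, Benjamini-Hochberg adjusted p = 6.38e-06 and 9.64e-06).

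CA9, a carbonic anhydrase at the cell surface that handles acid, was at 4.63, 3.13 and 2.02 CPM with DMSO and at 0.523, 0.445 and 0 CPM with STM2457. ADM, the secreted vasodilator peptide adrenomedullin, was at 3.81, 1.64 and 1.38 CPM with DMSO and at 0.488, 0.0318 and 0.694 CPM with STM2457. In both genes the DMSO libraries themselves differed by over 2-fold, but none fell into the range of the treated libraries. CA9 fell by 3.03 ± 0.48 on the log2 scale and ADM by 2.97 ± 0.66 (edgeR, Benjamini-Hochberg adjusted p = 0.000195 and 0.00315). The size of the ADM change ranged from -3.90 to -2.15 with 1 library left out.

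After 1 day the response in Kelly cells was smaller. Of the 7 genes tested 5 fell, 0 rose and 2 were not called, where 17.5% of 13246 genes were called and 8.06% fell. CA9 and ADM, at most 0.565 CPM in any of these inputs, did not pass the filter on low counts. SLC2A1 was at 267, 269 and 257 CPM with DMSO and at 201, 201 and 207 CPM with STM2457. LDHA was at 422, 415 and 444 CPM with DMSO and at 311, 342 and 328 CPM with STM2457. In both, treated and DMSO libraries were clearly separated.

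LDHA fell by 0.41 ± 0.05 on the log2 scale and SLC2A1 by 0.40 ± 0.05 (edgeR, Benjamini-Hochberg adjusted p = 1.28e-05 and 1.65e-05). BNIP3, at 74.6, 72.5 and 71.3 CPM with DMSO and 59.7, 55.5 and 59.5 CPM with STM2457, fell by 0.35 ± 0.06. PGK1, at 537, 529 and 568 CPM with DMSO and 443, 430 and 445 CPM with STM2457, fell by 0.33 ± 0.04. PDK1 fell by 0.28 ± 0.09 (edgeR, Benjamini-Hochberg adjusted p = 0.0411), and without DMSO input 2 or 3 or treated input 1 or 3 its adjusted p was 0.0799 to 0.147. NDRG1 was at 6.79 to 8.49 CPM in all 6 libraries (log2 change -0.03 ± 0.14), and EGLN3 was at 3.84 to 4.10 CPM with DMSO and 2.15 to 3.78 CPM with STM2457 (-0.36 ± 0.23), both not called.

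When 1 spread was estimated over all 22 inputs together, 0 of these 5 were called at 1 day, with estimates of -0.42 to -0.29, but only 0.183% of all 14224 genes were called by that fit.

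The difference between the 6 day and the 1 day response was tested as an interaction of treatment and experiment. It passed for 3 of 9 genes, where 8.41% of all genes passed. The response was more negative at 6 days by 1.53 ± 0.32 log2 units for EGLN3, by 1.24 ± 0.21 for NDRG1 and by 0.39 ± 0.08 for SLC2A1. LDHA had nearly the same estimate at both times, with a difference of -0.07 ± 0.08 and a 95% interval of -0.23 to 0.08. The remaining 5 differences were negative as well and were not called. The ADM difference was called at -3.81 without treated 6 day input 1, and DESeq2 called ADM (-2.86) and BNIP3 (-0.27). CA9 and ADM are among these 5 and were highest in the 6 day DMSO libraries. A filter on low counts favours a negative difference for such genes, so their direction and the ADM calls add little.

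**Figure D2:**
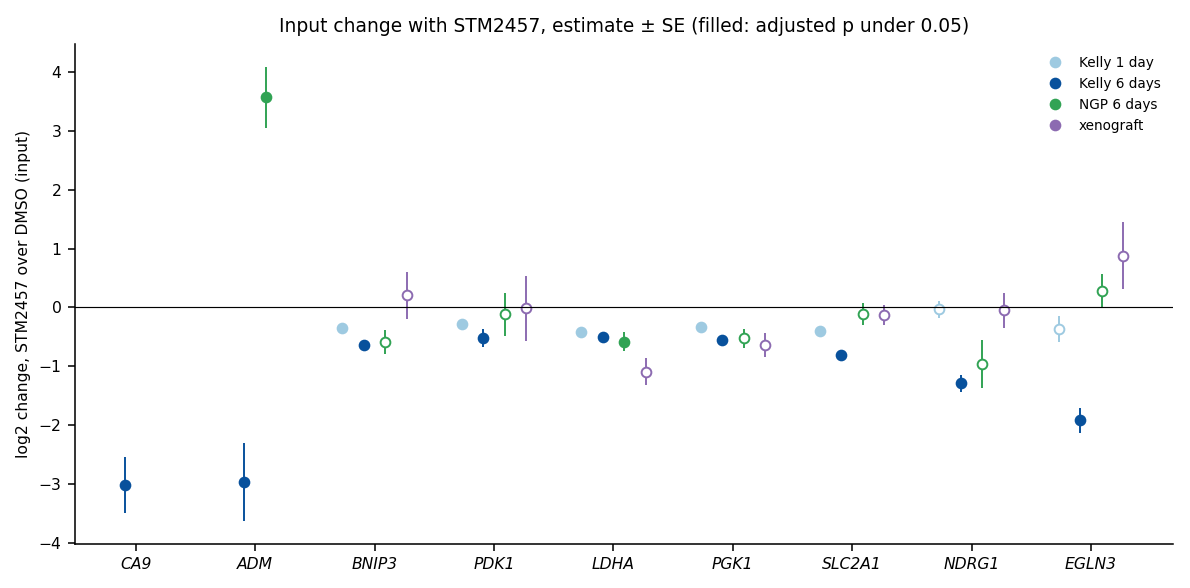
Log2 change of the input level with STM2457 over DMSO for each of the 9 genes in Kelly at 1 and 6 days, NGP at 6 days and the xenograft; points are edgeR estimates, bars their SE, and filled points have an adjusted p under 0.05. All 9 points of Kelly at 6 days are filled and below 0, and the only filled point above 0 is ADM in NGP, at 3.58.

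In NGP cells after 6 days only ADM and LDHA passed the test, in opposite directions, among 8 genes tested; 4.23% of 12289 genes were called there. ADM was at 0.543, 1.61 and 1.09 CPM with DMSO and at 13.3, 12.6 and 13.4 CPM with STM2457. All treated libraries lay far above all DMSO libraries. ADM rose by 3.58 ± 0.52 on the log2 scale, or 11.9-fold (edgeR, Benjamini-Hochberg adjusted p = 0.000139). It passed the low-count filter through its treated libraries, which favours a rise, and its DMSO counts were only 6 to 11. LDHA was at 403, 332 and 402 CPM with DMSO and at 246, 227 and 326 CPM with STM2457, where the highest treated library came close to the lowest DMSO library. It fell by 0.58 ± 0.16 on the log2 scale (edgeR, Benjamini-Hochberg adjusted p = 0.0341), and the call was lost without DMSO input 1 or 3 or treated input 1 or 2, with adjusted p-values of 0.0929 to 0.214. PGK1, at 309, 240 and 315 CPM with DMSO and 240, 153 and 236 CPM with STM2457, had a change of -0.53 ± 0.17 and an adjusted p of 0.079 by edgeR with Benjamini-Hochberg adjustment. PGK1 was called without DMSO input 2 (0.0435), by DESeq2 (0.0491), without the low-count filter (0.0226), with the replicate block (0.00851) and with 1 spread over all 22 inputs (0.00834). The last fit, which called 8.9% of all genes, also called NDRG1 (-0.97). NDRG1 (-0.96 ± 0.40), BNIP3 (-0.58 ± 0.21), PDK1 (-0.11 ± 0.37), SLC2A1 (-0.11 ± 0.19) and EGLN3 (0.28 ± 0.28) were not called. The common coefficient of variation between replicates was 0.24 in NGP, against 0.0913 in Kelly at 6 days.

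The response at 6 days differed between Kelly and NGP for 2 of 9 genes by the interaction test, where 1.36% of all genes passed. For ADM the Kelly response was lower by 6.48 ± 0.92 log2 units and for EGLN3 by 2.13 ± 0.37 (edgeR, Benjamini-Hochberg adjusted p = 0.000849 and 0.00515). ADM passed the low-count filter through its Kelly DMSO and NGP treated libraries, which favours this direction, so its call adds little. Its counts were only 1 to 14 in the treated Kelly inputs and 6 to 11 in the NGP DMSO inputs. EGLN3 in NGP was at 19.6, 14.3 and 16.2 CPM with DMSO and 22.8, 27 and 14.6 CPM with STM2457, with overlapping groups, while in Kelly it fell. The SLC2A1 difference, -0.68 ± 0.18, had an adjusted p of 0.0739 by edgeR with Benjamini-Hochberg adjustment and was called by DESeq2 (0.0169) and without NGP DMSO input 3 or NGP treated input 2.

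In the xenograft 0 of 7 genes tested were called, and 0% of 11329 genes were called by edgeR, while the unadjusted p was under 0.05 for 968 genes and for 2 of the 7. These 2 were LDHA and PGK1. DESeq2 called 1 of the 7, LDHA, and 1.06% of all genes. LDHA was at 155 and 192 CPM in the DMSO tumours and at 73 and 76.5 CPM in the treated ones. PGK1 was at 174 and 173 CPM in the DMSO tumours and at 95.9 and 109 CPM in the treated ones. In both genes the treated libraries were lower than both DMSO libraries, with estimates of -1.09 ± 0.22 and -0.63 ± 0.21 (edgeR, Benjamini-Hochberg adjusted p = 0.408 and 0.532).

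These 2 estimates rest on 2 libraries a group and a coefficient of variation of 0.448. LDHA was called without treated tumour 1 or treated tumour 2, at adjusted p-values of 0.0009 and 0.0005, and PGK1 without treated tumour 2 (0.0326); all-gene calls rose to 15.7% without treated tumour 1 and to 5.3% without treated tumour 2. SLC2A1 was at 224 and 225 CPM in the DMSO tumours and 181 and 194 CPM in the treated ones (-0.13 ± 0.17). The treated tumours disagreed for EGLN3 (18.5 and 56 CPM, against 20.7 and 23.2 CPM with DMSO), which was called at 1.48 without treated tumour 1. They also disagreed for BNIP3 (43.6 and 98.4 CPM, against 72.1 and 62 CPM with DMSO).

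The other genes of these pathways were counted from lists of oxygen sensing genes, glycolysis genes and hypoxia targets. In Kelly at 6 days 12 of 19 other glycolysis genes fell and 1 rose (median log2 change -0.31). Of the other hypoxia targets 14 of 28 fell and 0 rose (median -0.31). Over all genes tested there, 14.7% fell and 11.9% rose. STC2, a secreted glycoprotein, was at 72.1 to 75.4 CPM with DMSO and 6.35 to 7.80 CPM with STM2457, and fell by 3.55 ± 0.10 log2 units. DDIT4, an inhibitor of mTORC1 signalling, fell by 1.62 ± 0.07, SLC16A3, the lactate exporter MCT4, by 1.76 ± 0.11, and the aldolase ALDOC by 0.90 ± 0.08. SLC16A1, a second lactate carrier, rose by 0.37 ± 0.08.

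Of the oxygen sensing machinery, 6 of 13 genes rose in Kelly at 6 days and 0 fell (median 0.24), where 11.9% of all genes rose. EPAS1, the HIF2 alpha subunit, was at 516 to 536 CPM with DMSO and 668 to 822 CPM with STM2457, and rose by 0.40 ± 0.07. HIF1A, at 45.9 to 51.2 CPM with DMSO and 60.0 to 69.5 CPM with STM2457, rose by 0.32 ± 0.08. VHL rose by 0.24 ± 0.08. ARNT (0.16 ± 0.10), EGLN1 (0.22 ± 0.11) and EGLN2 (0.25 ± 0.18) were not called. The responses of EPAS1 at 6 days and 1 day differed by 0.41 ± 0.08 (edgeR, Benjamini-Hochberg adjusted p = 0.00269).

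At 1 day 10 of 19 other glycolysis genes and 8 of 29 other hypoxia targets fell and 0 rose. Over all genes 8.06% fell and 9.41% rose. Among the listed genes that fell were the glycolytic enzymes ALDOA (-0.52 ± 0.12) and GPI (-0.44 ± 0.04), STC2 (-0.81 ± 0.15) and the mitochondrial adenylate kinase AK4 (-0.65 ± 0.11). EGLN1 rose by 0.40 ± 0.12, and HIF1A (0.13 ± 0.05), EPAS1 (0.00 ± 0.04), ARNT (-0.14 ± 0.06), EGLN2 (0.21 ± 0.11) and VHL (0.04 ± 0.07) were not called. Of the genes that handle pyruvate dehydrogenase, 0 of 12 were called at 1 day, where 17.5% of all genes were. At 6 days 3 of 11 fell, among them PDK3 (-0.89 ± 0.17) and PDP2 (-0.40 ± 0.11), and PDPR rose (0.27 ± 0.08). The share of all genes called at 6 days was 26.6%, so these calls do not set the list apart.

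In NGP the estimates of 4 of 19 other glycolysis genes were above 0, with a median of -0.22 log2 and none past the test. Of the other hypoxia targets 3 of 27 fell, among them STC2 (-1.53 ± 0.20) and the collagen cross-linking enzyme LOX (-1.28 ± 0.28). Over all genes in NGP 2.16% fell and 2.07% rose. Of the machinery 1 of 14 genes rose, and HIF1A (0.31 ± 0.18), EPAS1 (-0.84 ± 0.37), ARNT (0.04 ± 0.19), EGLN1 (0.15 ± 0.25), EGLN2 (0.39 ± 0.38) and VHL (0.49 ± 0.16) were not called. In the xenograft 0 genes of these lists were called, where 0% of all genes were. There HIF1A was at -0.28 ± 0.43, EPAS1 at -0.54 ± 0.16, ARNT at -0.07 ± 0.64, EGLN1 at -1.61 ± 0.63, EGLN2 at -1.04 ± 1.06 and VHL at 0.33 ± 0.25.

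**Figure D3:**
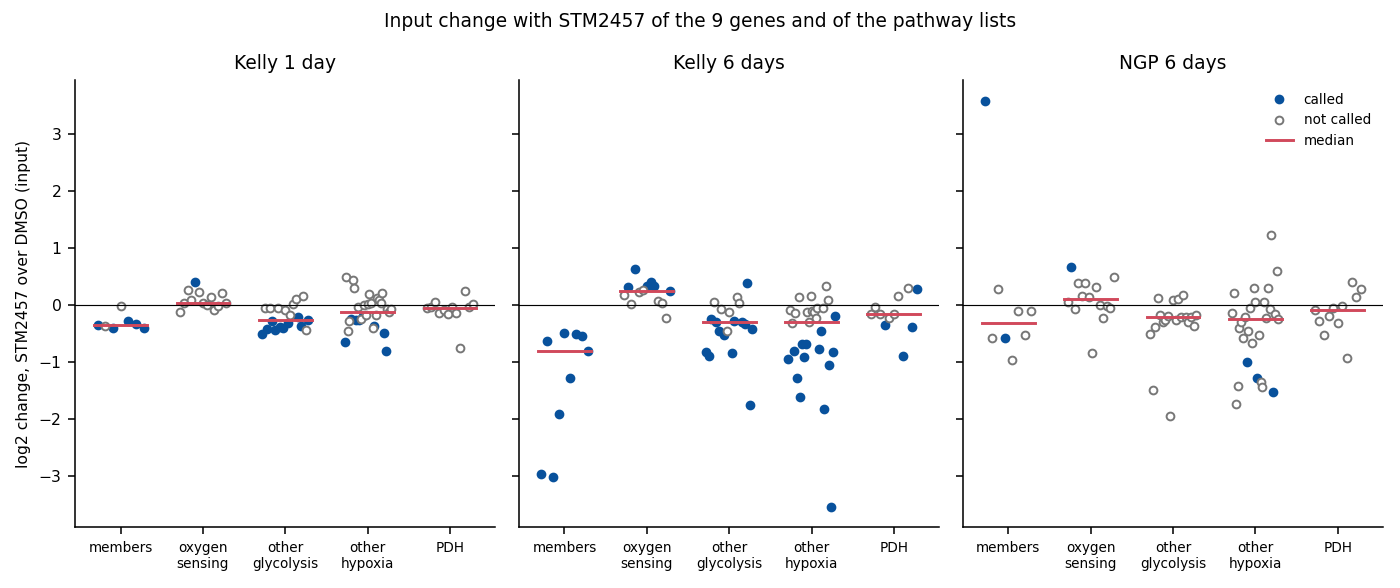
Log2 input change with STM2457 (vertical axis) in Kelly at 1 day, Kelly at 6 days and NGP at 6 days for the 9 genes and for the lists of oxygen sensing, other glycolysis, other hypoxia and pyruvate dehydrogenase (PDH) genes; filled points are called and the red bar is the median of the list. In Kelly at 6 days the medians are -0.82 for the 9 genes and 0.24 for the sensing machinery.

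The second comparison set DMSO libraries of different experiments against each other. Within Kelly cells, the genes split between 1 day and 6 days of culture: 5 were higher and 4 lower at 6 days. The comparison called 79.1% of all genes, so a call by itself singles out no gene. CA9 was at 0.35, 0.124 and 0.565 CPM at 1 day and ADM at 0.195, 0.166 and 0.226 CPM, and all libraries at 6 days, given above, were higher. ADM was higher at 6 days by 3.85 ± 0.52 log2 units, CA9 by 3.55 ± 0.46, EGLN3 by 2.03 ± 0.17, NDRG1 by 1.47 ± 0.15 and BNIP3 by 0.66 ± 0.06. ADM and CA9 passed the low-count filter through their 6 day libraries, which favours this direction. Their 1 day counts were only 4 to 6 for ADM and 3 to 15 for CA9, so the sizes are uncertain. LDHA was lower by -1.05 ± 0.05, PDK1 by -1.02 ± 0.12, PGK1 by -0.54 ± 0.05 and SLC2A1 by -0.16 ± 0.05.

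SLC2A1 was not called at 6 days over 1 day with other size factors (-0.11) or without 6 day DMSO input 3 (adjusted p = 0.0635, edgeR with Benjamini-Hochberg adjustment). The TMM scaling lifted the fitted changes by a median of 0.37 log2 units over the ratio of CPM means in this comparison, and all 9 directions were the same on both scales. Of the other hypoxia targets 7 of 28 were higher at 6 days and 12 lower, and of the other glycolysis genes 7 of 19 were higher and 10 lower. STC2 (3.16 ± 0.09), SLC16A3 (2.36 ± 0.12) and DDIT4 (2.12 ± 0.07) were higher at 6 days, and so was EGLN1 (1.39 ± 0.12). HIF1A (-1.81 ± 0.07), ARNT (-1.25 ± 0.07), EGLN2 (-0.74 ± 0.16) and EPAS1 (-0.31 ± 0.05) were lower. These comparisons of time share their 6 day DMSO libraries with the test of STM2457, and the values are given side by side only.

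Tumours carried more NDRG1 than cultured Kelly cells. It was at 65.6 and 85.1 CPM in the DMSO tumours, above every cultured library, and higher than in Kelly at 6 days by 2.23 ± 0.15 log2 units, or 4.69-fold. EGLN3 was higher by 0.86 ± 0.20, PDK1 by 0.82 ± 0.22 and SLC2A1 by 0.35 ± 0.07. PGK1 was lower by -0.68 ± 0.06 and BNIP3 by -0.36 ± 0.10, and LDHA (0.18 ± 0.09), CA9 (-1.52 ± 0.63) and ADM (0.01 ± 0.63) were not called. In total 6 of 9 genes were called, where 40.8% of 13065 genes were. Mitochondrial fragments made up 8.7% to 9.53% of the DMSO tumour inputs and 4.49% to 4.57% of the Kelly 6 day DMSO inputs, and the tumour inputs were shallower, at 4.301 and 7.272 M fragments; the part of either in these differences was not tested.

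With Kelly at 1 day in place of 6 days, where 61.6% of all genes were called, BNIP3 (0.26), PDK1 (-0.24) and LDHA (-0.91) changed direction, and of these LDHA was called. ADM became 3.82 and was called, at an adjusted p of 0.00145 by edgeR with Benjamini-Hochberg adjustment, and SLC2A1 (0.15) lost its call at 0.104. With 1 spread over all 22 inputs, BNIP3, SLC2A1 and EGLN3 lost their calls. The BNIP3 call was lost without 6 day DMSO input 1, 2 or 3, the PDK1 call without input 1 or 2 and the EGLN3 call without input 1 (adjusted p up to 0.112, edgeR with Benjamini-Hochberg adjustment). Without DMSO tumour 1, LDHA was called at 0.30, and without DMSO tumour 2, CA9 was called at -2.14. Of the other glycolysis genes 8 of 19 were higher in tumours and 5 lower, and of the other hypoxia targets 7 of 28 were higher and 6 lower. The lactate exporter SLC16A3 (0.53 ± 0.13), the lipase inhibitor ANGPTL4 (2.07 ± 0.39) and VHL (0.86 ± 0.12) were higher in tumours, and EPAS1 (-0.53 ± 0.06), HIF1A (-0.47 ± 0.12) and STC2 (-2.03 ± 0.19) were lower.

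NGP differed from Kelly at 6 days in 6 of 9 genes, where 60.8% of all genes were called. SLC2A1, at 56.5, 48.2 and 66.8 CPM in NGP, was lower than in Kelly by -1.87 ± 0.12 log2 units. LDHA was higher in NGP by 1.05 ± 0.09, and BNIP3 (-0.94 ± 0.15), NDRG1 (-0.83 ± 0.25) and PDK1 (-0.64 ± 0.21) were lower. CA9 was at 0, 0 and 0.796 CPM in NGP and was called lower, but it passed the low-count filter only through the Kelly libraries. Its fitted value ranged from -8.20 to -2.90 with 1 library left out and gives no firm size. The PDK1 call was lost without Kelly DMSO input 2 or 3 or NGP DMSO input 1, and the NDRG1 call without Kelly or NGP DMSO input 3, while ADM was called at -1.66 without NGP DMSO input 2. EPAS1, at 15.4 to 20.2 CPM in NGP against 516 to 536 CPM in Kelly, was lower by -5.06 ± 0.10. HIF1A was higher in NGP by 0.35 ± 0.11. Of the other glycolysis genes 3 of 19 were higher in NGP and 8 lower, with PFKFB3, which makes the activator of phosphofructokinase, at 3.57 ± 0.32 and SLC16A3 at -4.01 ± 0.20. Of the other hypoxia targets 9 of 29 were higher and 11 lower, with LOX at 3.78 ± 0.28 and DDIT4 at -2.46 ± 0.10.

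The third comparison set the RIP libraries against the inputs. A RIP over input ratio above 1 means a larger share of the antibody-bound fragments than of the input, and it is relative to the other genes of the library. The sequence GGACT is the commonest core of m6A sites, and windows around it in the GENCODE 44 MANE Select transcripts are shown because the genes differ in it; the capitals mark the motif, and the coordinates are its own.
SLC2A1, chr1:42926879-42926883, minus strand, 3′ UTR: agaatattcaGGACTtaacggctcc
LDHA, chr11:18407396-18407400, plus strand, 3′ UTR: attttaagatGGACTgggaaaaaca
PGK1, chrX:78124879-78124883, plus strand, coding: ggatgggcttGGACTgtggtcctga
SLC2A1 holds 2 GGACT motifs, LDHA and PGK1 4 each, and EGLN3 0. LDHA has 1.78 per kilobase and PGK1 0.83, against a median of 0.92 over 18730 transcripts. Among these genes, EGLN3 with 0 motifs had the highest ratio in Kelly at 1 day, below, and LDHA and PGK1 with 4 each the lowest. A relation between motif count and ratio was not tested, and m6A also occurs at other related sequences.

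In Kelly cells the glycolytic enzymes were far below 1 and EGLN3 above it. At 1 day with DMSO, 2 of 8 genes tested had a RIP share above input and 4 below, where 67.6% of all genes were called. PGK1 had ratios of 0.101, 0.108 and 0.0835 in same-numbered libraries (log2 ratio -3.31 ± 0.12), and LDHA had 0.109, 0.106 and 0.113 (-3.14 ± 0.12). PDK1 (-2.90 ± 0.65) and NDRG1 (-2.36 ± 0.73) were below input as well. EGLN3 had ratios of 5.71, 5.53 and 2.98 (2.31 ± 0.60), and SLC2A1 1.32, 1.31 and 1.12 (0.38 ± 0.09). All 3 DMSO libraries of each gene lay on the same side of 1. BNIP3 (-0.31 ± 0.15) was called without DMSO RIP 1 or treated RIP 2. Of the other glycolysis genes 14 of 19 were below input and 3 above, with a median of -2.81 against -0.07 over all genes.

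At 6 days, where 58% of all genes were called, PGK1 (0.0413, 0.0483 and 0.0348; log2 ratio -4.64 ± 0.29), LDHA (0.0883, 0.0893 and 0.0451; -3.80 ± 0.52) and BNIP3 (0.517, 0.446 and 0.424; -1.15 ± 0.20) were below input. EGLN3 was above, at 2.34, 2.51 and 1.68 (1.07 ± 0.43; edgeR, Benjamini-Hochberg adjusted p = 0.0481), and that call was lost without any 1 of the 6 inputs or without DMSO RIP 1 or 2 (adjusted p = 0.0571 to 0.151, edgeR with Benjamini-Hochberg adjustment). SLC2A1 (-0.38 ± 0.17) and NDRG1 (-1.86 ± 0.88) were not called, but SLC2A1 was with other size factors (-0.53), by DESeq2 and without treated RIP 1, 2 or 3, and NDRG1 by DESeq2 and without treated RIP 2 or 3. CA9 had 0 counts in all 3 DMSO RIP libraries, while its input mean was 3.26 CPM. Against a floor of 3 counts per library, its RIP level was 11.8-fold or more below input if counting error alone is considered. Weak genes varied more than that between RIP libraries. CA9 had 34, 0 and 0 counts in the treated RIP libraries, and PDK1 had 89, 57 and 1 in the DMSO ones. The CA9 zeros therefore give no firm size. In NGP, where 55.5% of all genes were called, PGK1 (0.149, 0.332 and 0.284; -2.09 ± 0.24) and SLC2A1 (0.844, 0.491 and 0.413; -0.90 ± 0.25) were below input among 8 genes tested. LDHA was not called there (0.496, 1.04 and 0.858; -0.44 ± 0.21), nor was EGLN3 (0.647, 1.12 and 0.892; -0.31 ± 0.27). LDHA was called at -0.58 without DMSO RIP 3 and NDRG1 at -1.01 without DMSO input 2. Whether these ratios differ between the lines was not tested. In the xenograft 0 of 8 genes were called, where 3.75% of all genes were; the unadjusted p was under 0.05 for 3 of the 8, and 3 were called by DESeq2, which called 17.4% of all genes. EGLN3 had ratios of 2.44 and 2.34 in the DMSO tumours, NDRG1 0.0981 and 0.0965, PGK1 0.108 and 0.0339, and LDHA 0.0834 and 0.00102. NDRG1, PGK1 and LDHA were each called without treated RIP 1 or treated RIP 2.

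**Figure D4:**
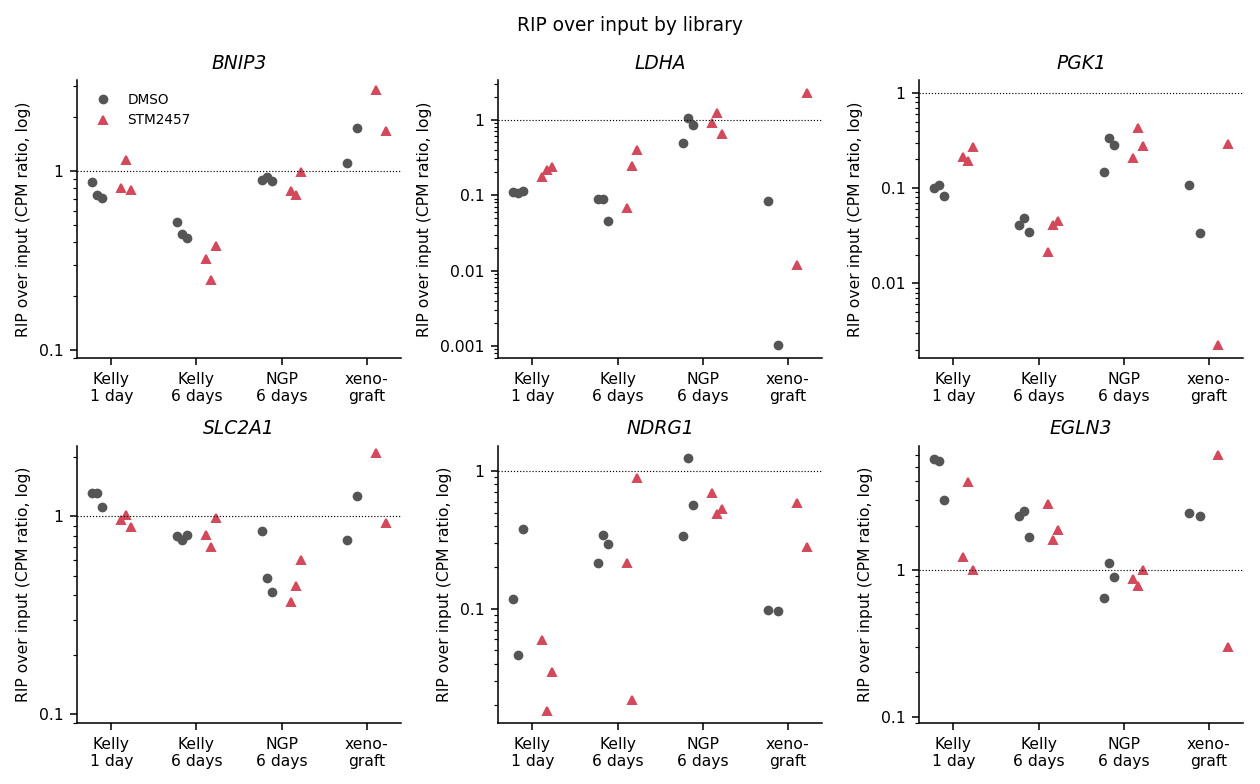
RIP over input ratio of CPM (log axis, dotted line at 1) between same-numbered libraries for the 6 genes with counts in every library; dots are DMSO and triangles STM2457, in Kelly at 1 and 6 days, NGP at 6 days and the xenograft. PGK1 lies below 1 in all libraries and EGLN3 above 1 in the DMSO libraries of the Kelly experiments, while the treated tumours differ widely for LDHA and PGK1.

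With STM2457 the ratios of LDHA and PGK1 moved towards 1 in Kelly at 1 day. LDHA went from the values above to 0.174, 0.214 and 0.237, and PGK1 to 0.214, 0.194 and 0.267. For both genes every treated library was above every DMSO library. The change was 1.03 ± 0.15 log2 units for LDHA and 1.31 ± 0.15 for PGK1 (edgeR, Benjamini-Hochberg adjusted p = 0.000613 and 9.31e-05), and these were 2 of 8 genes, where 17.2% of all genes were called. This direction depends on the scaling. With RIP libraries scaled on mitochondrial transcripts the median of all genes moved from -0.03 to -1.47, LDHA became -0.41 and PGK1 -0.14, which are lower than with DMSO but above that median. All-gene calls moved from 1303 higher and 1042 lower to 13 higher and 8348 lower, or 61.2% of genes, and 6 of the 8 genes were called, all lower. The ratio of SLC2A1 with STM2457 was 0.964, 1.02 and 0.883, below all DMSO libraries (-0.29 ± 0.12, not called), and that of EGLN3 was 1.23, 3.94 and 0.997 (-1.05 ± 0.81, not called). Without treated RIP 2, EGLN3 was called at -2.15. With the mitochondrial scaling SLC2A1 (-1.74), EGLN3 (-2.54), NDRG1 (-3.62) and BNIP3 (-1.13) were called with LDHA and CA9, and PGK1 was not. BNIP3 lay above the median of all genes and SLC2A1, EGLN3 and NDRG1 below it. CA9 had 0 counts in all 3 treated RIP libraries there, so its fitted value gives no size.

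In the other experiments no gene of the set had a called change of its ratio. In Kelly at 6 days 0 of 9 were called, where 2.06% of all genes were; the unadjusted p was under 0.05 for 3 of the 9, and DESeq2 called LDHA alone, 1 of 9, and 6.81% of all genes. LDHA was at 0.0674, 0.243 and 0.398 with STM2457 (2.03 ± 0.66; edgeR, Benjamini-Hochberg adjusted p = 0.139), and without treated RIP 1 it was called. In NGP 0 of 8 genes and 0% of 13088 genes were called, and 0 of the 8 had an unadjusted p under 0.05. In the xenograft 0 of 8 genes and 0% of 12626 genes were called, and 0 of the 8 had an unadjusted p under 0.05. There LDHA had ratios of 0.0117 and 2.26 in the treated tumours, and PGK1 0.00223 and 0.287. DESeq2 called 0 genes of the set in both.

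The levels of the 9 genes did not follow 1 common pattern over the 8 input groups. Pearson's r of a gene with the mean of the others ran from -0.39 for ADM to 0.60 for SLC2A1. Among 9265 other genes of at least 10 CPM, GMPPB (r = 0.96), MVK (0.93) and C16orf58 (0.82) came closest to the mean pattern of the set over these 8 group means. These are the highest of 9265 values, each over only 8 points, so their size says little. The DMSO and treated inputs of an experiment also lay in the same folder.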

How the data were processed

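The authors deposited 1 table of raw fragment counts per gene for each of 44 libraries. Per the file headers, featureCounts 1.5.3 counted paired fragments over exons of the protein-coding part of GENCODE 33, by gene name, with no strand option. The submitters' processing notes name Trimmomatic 0.36, HISAT2 2.1.0 and GRCh38. Spike-in RNAs were added, per the labels, and are not analysed here; the sources used here do not say how mouse fragments were treated.

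Groups came from the labels. These counts were tested with the quasi-likelihood method of edgeR 4.0.16 under R 4.3.3, after filterByExpr (minimum count 10, total 15) and TMM scaling, and two-sided p-values with Benjamini-Hochberg adjustment over all genes at 0.05. Input fits compared STM2457 with DMSO, or DMSO groups of 2 experiments; enrichment fits held RIP and input libraries with an interaction of treatment and library type; differences of response were interactions of treatment and experiment. SEs were derived from the change and its F value. The fits of the input change with STM2457, of tumours against Kelly at 6 days and of the changed RIP over input were tried on simulated counts. The other fits were not. CPM and TPM were computed from the counts; zero counts were set against a floor of 3 counts per library, which covers counting error only.

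The genes and lists were chosen with earlier results of these data known. All 9 genes are named, with 6 genes of oxygen sensing (HIF1A, EPAS1, ARNT, EGLN1, EGLN2, VHL) and, from each other list, up to 2 of the largest rises and 2 of the largest falls among called genes with a mean of 2 log2 CPM or more and no overlap between groups. Of the 21 listed glycolysis genes, 20 were in the tables used here. A check of 40 replicate pairs found none as close as sampling noise (lowest chi-square per degree of freedom 2.73). The results were recomputed with DESeq2 1.42.0, with RLE size factors, without the low-count filter, with a replicate block, over all 22 inputs together, with Kelly at 1 day as the culture set against tumours, with mitochondrial scaling of the RIP libraries, and after leaving out single libraries.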

Additional observations from a re-analysis of the deposited data

Results flagged for a closer look

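The response to STM2457 differed between experiments for some of the 9 genes, by the interaction test. For Kelly at 6 days against 1 day 3 of 9 passed, where 8.41% of all genes did. For Kelly against NGP at 6 days 2 of 9 passed, where 1.36% of all genes did. Between Kelly at 6 days and at 1 day the log2 differences were -1.53 ± 0.32 for EGLN3, -1.24 ± 0.21 for NDRG1 and -0.39 ± 0.08 for SLC2A1. Between Kelly and NGP at 6 days they were -6.48 ± 0.92 for ADM and -2.13 ± 0.37 for EGLN3. ADM passed the low-count filter through its Kelly DMSO and NGP treated libraries, which favours a negative difference, so its call adds little. The experiments lay in separate folders, so a batch and the experiment cannot be told apart in these differences, although each response was measured within its own experiment.

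Among the other genes named, the 6 day response of Kelly cells was more negative than the 1 day response for STC2 (-2.72), DDIT4 (-1.34), SLC16A3 (-1.31), ALDOC (-0.83), PDK3 (-0.72) and PFKFB4 (-0.50), and more positive for EPAS1 (0.41). The Kelly response was more negative than that of NGP for STC2 (-1.98), SLC16A3 (-1.42) and DDIT4 (-0.997).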

How the results depend on the processing

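The fall of all 9 genes in Kelly at 6 days kept its direction in every alternative run, but with 1 spread over all 22 inputs CA9 and PDK1 lost their calls. That fit called 7 of the 9 in Kelly at 6 days (5.56% of all genes), 0 at 1 day (0.183%), 4 in NGP (8.9%), 2 in the xenograft (17.9%, against 0% before) and 3 in the xenograft over Kelly at 6 days (33.1%). In the xenograft DESeq2, no low-count filter and the replicate block each called 1. For RIP over input, the replicate block called 3 in Kelly at 6 days and 2 in the xenograft, where DESeq2 and no filter called 3 each. DESeq2 called 1 changed ratio in Kelly at 6 days and 5 differences between 6 days and 1 day. Mitochondrial scaling called 6 changed ratios at 1 day (61.2% of all genes) and 3 at 6 days (39.2%), and turned BNIP3 (-1.13), LDHA (-0.41) and PGK1 (-0.14) at 1 day. With Kelly at 1 day as the culture, BNIP3 (0.26), PDK1 (-0.24) and LDHA (-0.91) turned in the xenograft comparison. Leaving out 1 library gave counts of 1 to 3 (NGP input), 0 to 2 (xenograft input), 3 to 7 (xenograft over Kelly), 0 to 1 (changed ratio in Kelly at 6 days) and 0 to 3 (xenograft ratio). The share of all genes called shifted between settings as well, so these counts describe the settings and single out no gene. The causes of these shifts were not tested. Same-numbered inputs deviated together with r of -0.36 to 0.18, so numbers were not taken as pairs; the replicate block lost PDK1 at 1 day and added PGK1 in NGP. Counting precision was least in the xenograft inputs, from 2.145 M fragments.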
